A study of Homo sapiens with 2 samples.

Results

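AP-1 and other immediate-early genes were followed in MCF-10A, a human breast epithelial line that does not form tumours, whose cells were transfected with siRNA (short RNA that triggers degradation of a matching transcript) directed at SCTR or with a control siRNA. The 10 genes were taken by symbol, FOS, FOSL1, FOSL2, JUN, JUNB, JUND, ATF3, EGR1, IER2 and IER3, out of 10161 genes with a named probe, and each was read by 1 probe. Biotin-labelled cRNA of total RNA was hybridised to 1 Illumina bead array per group, 2 arrays in all. The groups were MCF-10A cells with SCTR siRNA (1 array) and MCF-10A cells with negative control siRNA (1 array). The siRNA sequences, their dose and the time from transfection to lysis were not given in the labels. A single array stands for each group, so the spread between samples is unknown, nothing was tested, and precision is limited by the number of arrays.

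AP-1 is a dimeric transcription factor built from JUN proteins and from FOS or ATF proteins, which pair through a leucine zipper and bind DNA through the basic region beside it. JUN proteins can pair with each other, whereas FOS proteins need a JUN partner. Genes of this kind are called immediate-early because growth factors, stress and cyclic AMP switch them on within minutes, without new protein synthesis, largely through serum response factor with its ELK partners and through CREB. Mammary epithelial lines are grown with epidermal growth factor, a classical inducer of FOS, JUN and EGR1. SCTR encodes the secretin receptor, which raises cyclic AMP.

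The DNA just upstream of annotated start sites of the genes shows which of these response letters lie close to those sites. RefSeq sequence of build GRCh38.p14 was at hand for 8 of the 10 genes, in 9 windows of 250 bases before an annotated start site. The windows below belong to FOS and ATF3, which were lower by 2-fold or more with SCTR siRNA, to JUN and JUND, which were higher, and to EGR1, which barely differed. Each is written 5′ to 3′ in the direction of the gene. Capitals mark the letters TGACGT in either orientation (the core of the cyclic AMP response element), TGACATCA (an AP-1 and ATF site) and the CArG box that serum response factor binds.
FOS, chr14:75278578-75278827, plus strand: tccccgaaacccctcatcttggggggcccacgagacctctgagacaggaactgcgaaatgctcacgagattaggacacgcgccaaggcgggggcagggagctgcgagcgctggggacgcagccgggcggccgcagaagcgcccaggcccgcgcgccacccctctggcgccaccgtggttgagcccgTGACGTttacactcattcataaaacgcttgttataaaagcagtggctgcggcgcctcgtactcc
ATF3, chr1:212565157-212565406, plus strand: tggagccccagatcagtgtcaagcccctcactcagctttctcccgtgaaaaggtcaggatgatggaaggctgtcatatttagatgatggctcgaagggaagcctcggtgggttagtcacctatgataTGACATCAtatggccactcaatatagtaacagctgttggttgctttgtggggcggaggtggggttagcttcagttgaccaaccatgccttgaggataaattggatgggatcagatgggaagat
JUN, chr1:58784048-58784297, minus strand: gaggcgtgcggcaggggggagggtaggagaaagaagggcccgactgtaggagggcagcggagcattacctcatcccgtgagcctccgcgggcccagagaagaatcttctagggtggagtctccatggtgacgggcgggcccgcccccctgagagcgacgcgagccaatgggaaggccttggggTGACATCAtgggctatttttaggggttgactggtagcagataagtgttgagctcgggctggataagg
JUND, chr19:18281623-18281872, minus strand: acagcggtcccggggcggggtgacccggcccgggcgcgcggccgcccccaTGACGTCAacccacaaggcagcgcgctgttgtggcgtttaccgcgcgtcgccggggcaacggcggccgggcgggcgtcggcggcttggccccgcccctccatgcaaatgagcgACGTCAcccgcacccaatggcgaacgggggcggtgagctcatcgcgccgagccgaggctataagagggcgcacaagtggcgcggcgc
EGR1, chr5:138465229-138465478, plus strand: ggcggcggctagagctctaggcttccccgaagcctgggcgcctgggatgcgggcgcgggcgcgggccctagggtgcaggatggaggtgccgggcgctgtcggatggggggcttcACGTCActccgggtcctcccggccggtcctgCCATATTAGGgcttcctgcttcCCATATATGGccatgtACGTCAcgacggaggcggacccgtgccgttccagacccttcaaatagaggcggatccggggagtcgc

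In FOS the core TGACGT lay 64 to 59 bases before the start site, and in JUN the site TGACATCA lay 67 to 60 bases before it. The ATF3 window, 1 of 2 for that gene, held TGACATCA 123 to 116 bases before its start site, and the other window held none of the capitalised letters. These 2 windows belong to different annotated start sites of ATF3. Whether these cells used either site was not read, so neither window need be the promoter active here. JUND had the full palindrome TGACGTCA, which contains TGACGT on both strands, 200 to 193 bases before its start site, and a separate TGACGT core nearer to it. EGR1 held TGACGT in 2 places and a CArG box in 2 places. Searched on both strands, TGACGT occurred in 4 of the 9 windows, those of FOS, FOSL2, JUND and EGR1, and in 7.1% of all 35116 windows. The palindrome TGACGTCA occurred in 1 of 9 and 1.65%, TGACATCA in 2 of 9 and 2.37%, and the CArG box in 1 of 9 and 1.16%. The AP-1 consensus TGACTCA occurred in 0 of 9 windows and 4.2% of all, and TATAAA in 3 of 9 and 10.7%. TATAAA lay 33 to 28 bases before the start site in FOS and 31 to 26 in JUNB. In ATF3 it lay further off, 230 to 225 bases before the start site of the window not printed. Genes with the TGACGT core were lower (FOS), higher (JUND) and near 0 (EGR1, FOSL2). Whether the core bears on direction was not tested. These matches describe the sequence and say nothing of binding in these cells. Sequence outside the windows was not searched, so a gene without a match, such as FOS for the CArG box, may hold the site elsewhere.

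Signals of 47316 probes were read, with a median intensity of 124 units on the SCTR siRNA array and 122 on the negative control siRNA array, and 33.5% and 32.2% of probes detected at a detection p under 0.01. Gene names were at hand for the 16871 processed probes only, and among these the number named SCTR was 0, so the knockdown itself was not read, and each direction given here relies on the array labels. The epithelial label was borne by CDH1, EPCAM and KRT8 and by the basal genes CDH3, ITGB4, LAMB3 and EGFR, detected on both arrays. KRT5, KRT14, KRT17, KRT18, KRT19 and TP63 had no named probe. Of 4 hormone receptor luminal markers 2 had a name, both dim. FOXA1 was detected on both arrays, at 251 units with SCTR siRNA and 194 with control siRNA. GATA3, at 177 and 154 units, was detected on the SCTR siRNA array only. The E-cadherin gene CDH1 had 13807 intensity units on the SCTR siRNA array and 4115 on the control array. Of 6 fibroblast markers the 1 with a name, COL1A1, was close to background, at 166 units with SCTR siRNA and 119 with control siRNA (detection p 0.0078 and 0.19). Of 6 leukocyte markers the 2 with a name were detected on both arrays, CD14 at 13060.1 and 3934 units and CD68 at 6292 and 9079. Whether such differences between the arrays bear on the genes below was not tested.

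All 10 genes were detected on both arrays, and they divided by direction. Compared with control siRNA, SCTR siRNA went with lower FOS and ATF3 (past 2-fold) and lower JUNB (past 1.5-fold), and with higher IER3 (past 2-fold), JUN and JUND (past 1.5-fold). FOSL1, FOSL2, EGR1 and IER2 lay within 1.5-fold. Differences are given as SCTR siRNA minus control siRNA, between background-corrected and quantile-normalized log2 levels, unless another source is named.

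The 2-fold line was passed upward by 1 of the 10 genes and by 9.73% of the 8661 genes measurable on both arrays, and downward by 2 of the 10 and by 8.44% of all. At 1.5-fold the shares were 19.5% higher and 22.6% lower, against 3 and 3 of the 10. Counts of this size among 10 genes are no result about the genes as a group, and the single genes are described below. Their median difference was 0.10, beside -0.09 over all 8661 genes, with 6 positive and 4 negative. Without regard to sign, the median size of the difference was 0.79 for the 10 genes and 0.49 for all genes. The 10 genes were chosen with earlier results of these data known, so these medians are no evidence about them as a group.

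**Figure D1:**
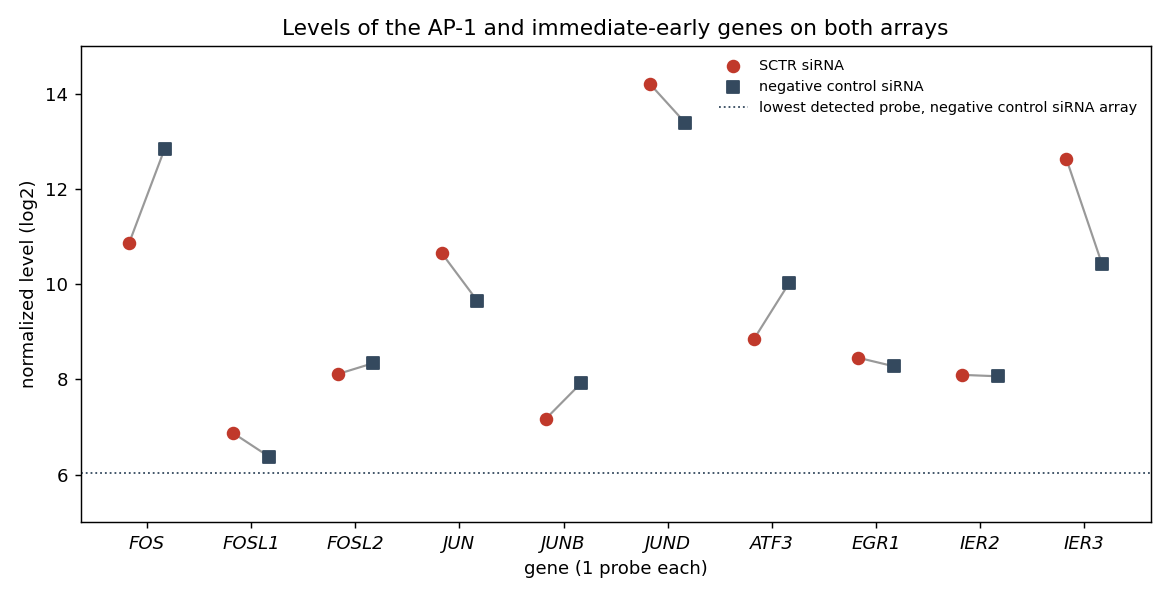
Normalized log2 level of each gene on the SCTR siRNA array (red circles) and the negative control siRNA array (dark squares), 1 array per group and 1 probe per gene, with the dotted line at the dimmest detected probe of the control array (6.04). FOS, ATF3 and JUNB slope upward toward the control array, IER3, JUN and JUND slope downward, and FOSL1 lies nearest to the line; levels of different probes are not comparable with each other.

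FOS, the founding partner of JUN in AP-1 and a standard marker of recent growth factor or cyclic AMP signalling, had 1994 intensity units on the SCTR siRNA array and 7528 on the control array. Its normalized log2 level was 10.87 with SCTR siRNA and 12.84 with control siRNA, a difference of -1.97, so that the level was 3.92-fold higher on the control array. Only 65 of the 8661 genes, FOS included, had a difference this low or lower. In the authors' processed table the FOS levels were 10.90 and 12.85, a difference of -1.94.

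The other FOS proteins did not share that difference. FOSL1 (FRA-1), which epithelial cells use in migration and invasion, had 217 units on the SCTR siRNA array and 171 on the control array, with detection p-values of 0.0013 and 0.0039. Both values are close to the dimmest detected probes, at 156 and 155 units. The FOSL1 difference was 0.49, within 1.5-fold, and it was 0.25 without background correction. It passed 1.5-fold under median scaling (0.59) and without normalization between the arrays (0.67). FOSL2 (FRA-2), the longer-lived relative, had 375 units with SCTR siRNA and 409 with control siRNA, a difference of -0.23. The gap between FOSL1 and FOS was 2.46 on the log2 scale, and 2.17 to 2.64 over the treatments of the signals.

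The JUN genes went in both directions. JUN, the transactivating partner that can act without FOS, had 1722 units on the SCTR siRNA array and 888 on the control array. Its log2 level was 10.65 with SCTR siRNA and 9.66 with control siRNA, a difference of 1.00 that fell just short of the 2-fold line (1.995-fold). Without normalization between the arrays it was 1.03, just past that line. JUND, which many resting cells hold at a steady level, had 17872 units with SCTR siRNA and 10853 with control siRNA, a difference of 0.82. JUNB, which often restrains JUN and is itself induced by cyclic AMP, had 245 units with SCTR siRNA and 329 with control siRNA, a difference of -0.75.

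JUNB was dim on both arrays, and its difference was -0.48 in the authors' processed values and -0.50 without background correction, both short of 1.5-fold. JUND was at 0.65 under median scaling and 0.87 in the authors' values, past 1.5-fold in each. Set against each other, the JUN difference exceeded that of FOS by 2.97 on the log2 scale, and by at least 2.84 under each treatment of the signals. The JUND difference exceeded that of JUNB by 1.57 (1.32 to 1.57).

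ATF3, a bZIP factor induced by stress and by cyclic AMP that pairs with JUN proteins, had 562 units on the SCTR siRNA array and 1126 on the control array. Its log2 level was 8.85 with SCTR siRNA and 10.03 with control siRNA, a difference of -1.18, with the level 2.27-fold higher on the control array. It stayed past 2-fold in every treatment tried, from -1.22 under median scaling to -1.01 in the authors' processed values, where it only just did so. In rank it was the 458th lowest of the 8661 differences, a less extreme place than that of FOS.

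EGR1, a zinc finger factor and the most commonly used immediate-early marker beside FOS, barely differed. It had 451 units on the SCTR siRNA array and 395 on the control array, and log2 levels of 8.45 and 8.28, a difference of 0.18. IER2, a nuclear immediate-early protein, had 372 units with SCTR siRNA and 354 with control siRNA, a difference of 0.03, the smallest of the 10. Both signals were clearly above the dimmest detected probes, and over all treatments EGR1 stayed between 0.14 and 0.25 and IER2 between 0.02 and 0.10. FOS and EGR1, which the same stimuli induce in many cells, were unlike on these arrays.

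IER3 (IEX-1), an early response gene tied to cell survival and a target of NF-kB, whose protein is not known to bind DNA, stood furthest on the other side. It had 6335 units on the SCTR siRNA array and 1459 on the control array. Its log2 level was 12.62 with SCTR siRNA and 10.43 with control siRNA, a difference of 2.19 or 4.57-fold. Only 90 of 8661 genes, IER3 included, had a difference this high or higher. In the authors' processed values the difference was 2.18, from levels of 12.64 with SCTR siRNA and 10.47 with control siRNA.

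**Figure D2:**
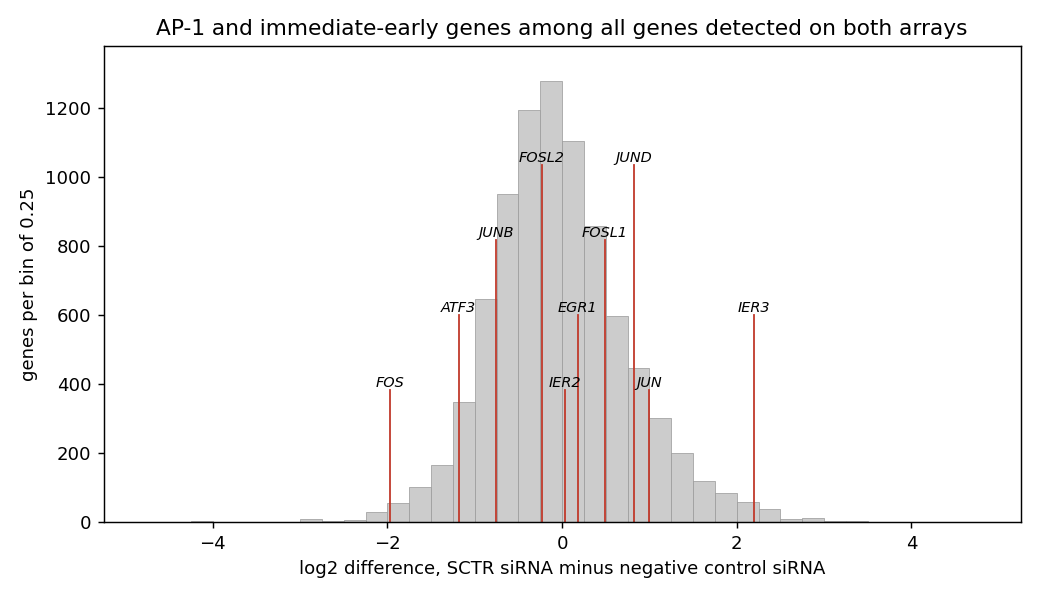
Histogram of the log2 difference (SCTR siRNA minus negative control siRNA) of the 8661 genes detected on both arrays in bins of 0.25, with a red line at each of the 10 genes; line heights only separate the names. FOS (-1.97) and IER3 (2.19) lie in the tails, and FOSL2, IER2 and EGR1 lie near the centre of the distribution.

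How far a difference moved with the treatment of the signals varied between the genes. FOS ranged from -2.05 to -1.92 and IER3 from 2.11 to 2.19 over the 6 treatments. FOSL1 ranged from 0.25 to 0.67, JUNB from -0.75 to -0.48 and JUND from 0.65 to 0.87. All 10 genes kept their sign in all 6. A second named probe, which would show how far a value depends on the probe, was not there for any of the 10. Probes without a gene name could not be searched for one. For 1902 other genes with at least 2 probes detected on both arrays, the differences given by the brightest probe and the next were apart by a median of 0.19. Their 90th percentile was 0.70.

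**Figure D3:**
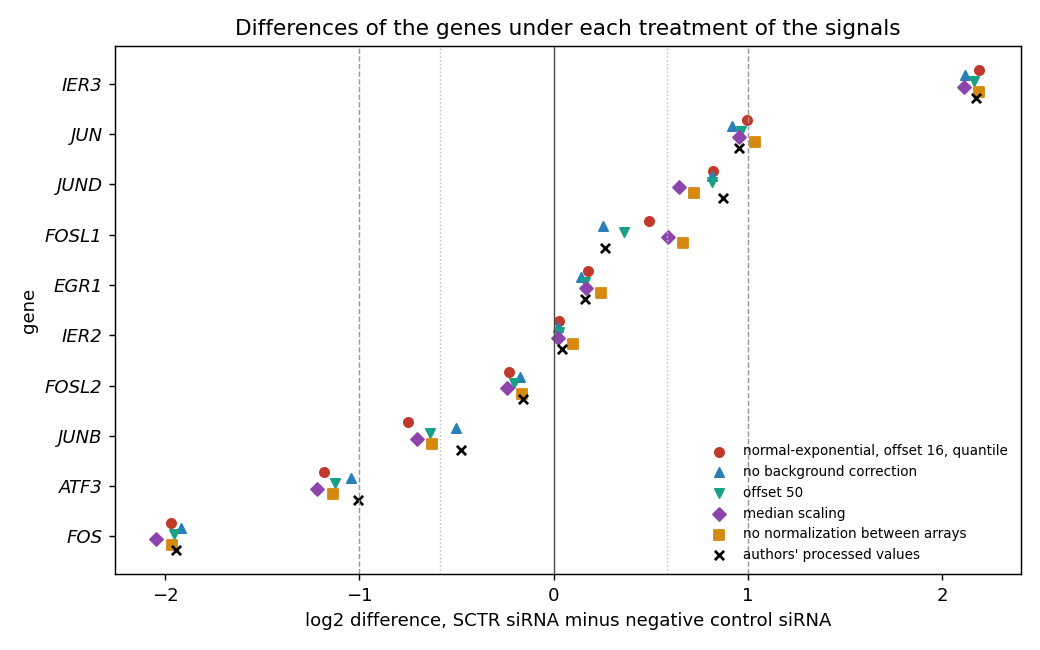
Log2 difference (SCTR siRNA minus negative control siRNA) of each gene under 6 treatments of the signals, with dashed lines at 2-fold and dotted lines at 1.5-fold. FOS, ATF3 and IER3 lie beyond the dashed lines under each treatment, JUN crosses its line under 1 of them, and FOSL1 and JUNB spread most.

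Relatives and regulators of the 10 genes came from lists that were drawn up with earlier results of these data known, so a list's direction is no independent evidence. Names were at hand only for the processed probes, so not every listed gene could be read. A named probe was there for 7 of 14 other bZIP factors and 22 of 29 other immediate-early genes. It was there for 16 of 20 upstream kinases and factors and 9 of 10 genes for partners and turnover. Other bZIP factors that can pair with AP-1 proteins counted 2 of 7 higher and 2 lower by 1.5-fold or more, beside 19.5% and 22.6% of all genes, and had a median of -0.16. FOSB, the remaining FOS gene, was dim and higher on the SCTR siRNA array, with 315 units and 209 on the control array, a difference of 0.79 (0.51 in the authors' values). MAFG, a small MAF protein, was at 0.68 (0.41 in the authors' values), also from dim signals. ATF2, a partner of JUN, was at -0.63 and the interferon-inducible BATF2 at -0.59, or -0.50 and -0.46 in the authors' values. FOSB, MAFG, ATF2 and BATF2 thus all fell short of 1.5-fold in the authors' values. For MAFF the brightest probe gave 0.00 and another probe 1.10, so its direction depends on the probe.

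Of 21 other immediate-early genes, 4 were higher and 6 lower by 2-fold or more, beside 9.73% and 8.44% of all genes, and the median was -0.48. CSRNP1, a nuclear factor first described as induced by AXIN1, had 1076 units with SCTR siRNA and 3056 with control siRNA, a difference of -1.65. On the other side CCN1 (CYR61), a secreted matrix-associated protein, had 9230.2 units with SCTR siRNA and 3263 with control siRNA, a difference of 1.49. SRF, the serum response factor that drives many immediate-early promoters, had 2208 and 851 units, a difference of 1.45.

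Of 16 kinases and factors upstream of the genes, 2 were higher and 2 lower by 1.5-fold or more, beside 19.5% and 22.6% of all genes, and the median was -0.10. Beside SRF and CREB1 these were MAPK3 and MAP2K4. MAPK3 (ERK1), which phosphorylates the ELK partners of SRF, was at -1.16 (second probe -1.05). MAP2K4, a kinase that activates JNK, was at -0.67 (second probe -0.19), and at -0.57 in the authors' values, short of 1.5-fold. CREB1, which binds the TGACGT core capitalised above, had a difference of 1.40 in its brightest probe, whereas other detected probes gave 1.54 and -0.63, so its direction also depends on the probe.

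Of 9 genes for partners and turnover of these proteins, 3 were lower and 0 higher with SCTR siRNA by 1.5-fold or more, beside 22.6% and 19.5% of all genes, and 3 of the 9 had positive differences (median -0.20). DET1 had 257 units with SCTR siRNA and 525.5 with control siRNA, a difference of -1.49 (second probe -1.28). COP1, which with DET1 forms a ubiquitin ligase for JUN, had 1704 and 2778 units, a difference of -0.77 (second probe -0.80). COPS5 (JAB1), a signalosome subunit first found as a JUN coactivator, had 1680.4 and 4030.1 units, a difference of -1.34. FBXW7, part of another ligase that recognises JUN, was at 0.46 (a second probe 0.99), and EGR1's corepressor NAB2 was at 0.12.

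Of 24 genes listed as AP-1 targets, 13 had a named probe and 12 were measured on both arrays. These had positive differences in 12 of 12, 5 past 2-fold and the rest within 1.5-fold, with a median of 0.52. This list and that of EGR1 targets were drawn up with earlier results of these data known. Their direction is therefore no independent evidence. Over all 8661 genes 3852 were positive and 9.73% were past 2-fold upward. The basal epithelial markers were positive in 4 of 4 (median 1.41) and the epithelial markers in 3 of 3 (median 0.82), and their part in the AP-1 target values was not tested. CXCL8, a neutrophil chemokine, had 28671 units with SCTR siRNA and 1930.5 with control siRNA, a difference of 4.03 (second probe 4.48). HBEGF, a ligand of the EGF receptor, was at 4.01, from 1369 units with SCTR siRNA and a signal near background, 167 units, with control siRNA, and at 2.97 in the authors' values. The cornified envelope gene SPRR1A was at 3.29 and PLAU, the urokinase protease, at 3.14, while SPRR1B was detected on the SCTR siRNA array only, with 630 units there and 141 with control siRNA, and differed by 2.10 in the authors' values. Of 11 genes listed as EGR1 targets, 5 had a named probe, and these were measured on both arrays. Among them 3 were past 1.5-fold upward and 0 downward, beside 19.5% and 22.6% of all genes. The tissue factor gene F3 had 9406 units with SCTR siRNA and 386 with control siRNA, a difference of 4.94, followed by the proteoglycan gene SDC1 at 2.76 and ICAM1 at 0.80, next to EGR1 itself at 0.18. The other two were NAB2 at 0.12 and the growth factor gene PDGFA, dim on both arrays, at -0.07. CXCL8 and ICAM1 are known as NF-kB targets as well, like IER3. Whether NF-kB bears on any of these values was not tested.

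**Figure D4:**
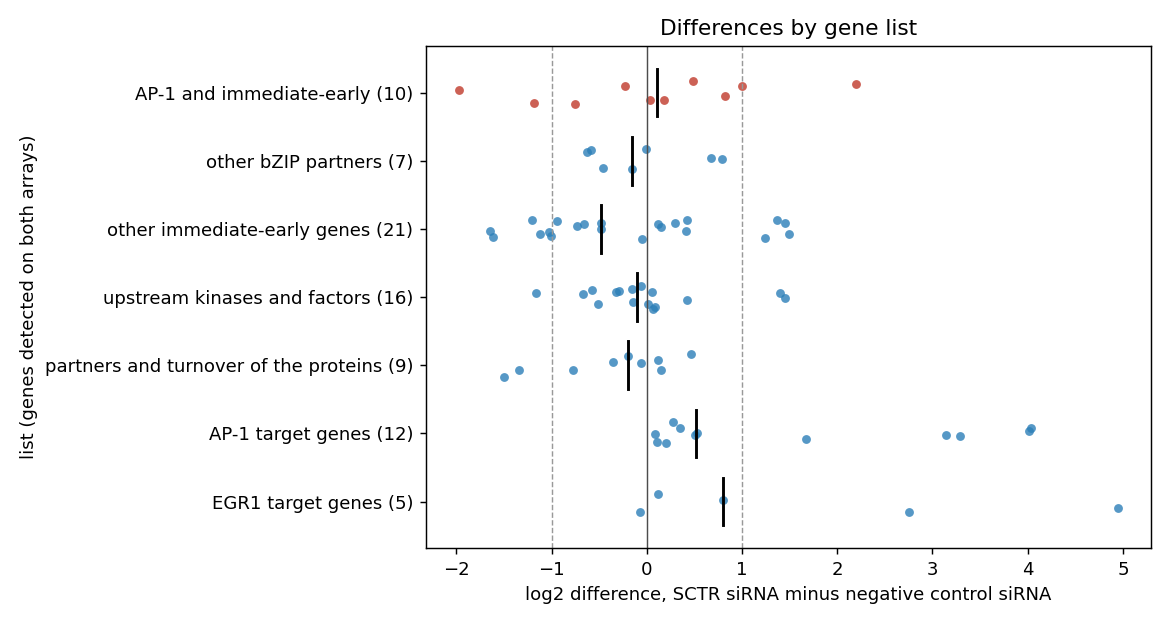
Log2 difference (SCTR siRNA minus negative control siRNA) of each gene detected on both arrays, by list, with the number of genes in brackets, a black bar at the median and dashed lines at 2-fold. The 10 AP-1 and immediate-early genes (red) span -1.97 to 2.19 around a median of 0.10, other immediate-early genes spread to both sides (median -0.48), and AP-1 target genes lie at or above 0 (median 0.52).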

How the data were processed

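Biotin-labelled cRNA from 1 RNA sample per group was read on Illumina bead arrays, per the labels' protocols. GenomeStudio 2011.1 is named in the submitters' processing notes. A raw table deposited by the authors holds, for every probe and array, its intensity and a detection p-value in steps of 0.0013. The lowest intensity is 61.1, so no background was taken off. The log2 values deposited by the authors cover 16871 probes, all of which reached a detection p below 0.05 on 1 array or both. Their sorted columns match within 0.00042, as after quantile normalization. How the authors got there is not given in the sources used here.

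Intensities were corrected with limma 3.58.1 (R 4.3.3), with the normal-exponential model (offset 16, background estimated through the detection p-values). Quantile normalization and log2 followed. Platform annotation named 13060 of the processed probes with 1 gene, 3 with several (left unnamed) and 3808 with none, and 13054 gene IDs matched RefSeq. Among probes below a detection p of 0.01 on each array, the brightest stood for its gene. A gene detected on 1 array only got a lower bound, its bright level against the higher of its dim level and the lowest detected level on the other array. Named were all 10 genes. From each related list came up to 4 genes with the largest differences and those with a bound of at least 2-fold. MAFF, CDH1, FOXA1, GATA3, COL1A1, CD14 and CD68 were added after their values were seen. A gene that this rule picks is not reported here. The members and lists were chosen with earlier results of these data known. The steps were tested on simulated data.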

Additional observations from a re-analysis of the deposited data

How the results depend on the processing

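Alternatives were no background correction, an offset of 50, median scaling, no normalization between the arrays, a looser detection limit (p under 0.05), no detection limit, the authors' processed values, probes averaged per gene, a 1.5-fold rule, and genes detected on 1 array at their bound. With no replicates, a difference or a median was taken as moved where it shifted by 1.5-fold or more. None of the 50 recomputed differences of single genes and none of the 48 recomputed list medians shifted that far. A count was taken as moved where it changed by more than 1.5-fold. The count of the 10 genes at least 2-fold higher was 1, but 2 without normalization between the arrays, where JUN passed the line, and 3 under the 1.5-fold rule. The count of the 10 genes lower was 2, and 3 under the 1.5-fold rule, a change not beyond that limit. Over all genes the count at least 2-fold lower was 731, but 417 when no background was corrected and 394 when the authors' values were used. The 1.5-fold rule gave 1691 higher and 1955 lower. Dim signals limit FOSL1 and JUNB. No paired analysis was possible because each group has 1 array.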

Other observations

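More of the immediate-early genes past 2-fold were picked out after their values were seen. Lower on the SCTR siRNA array were KLF4, a zinc finger factor of epithelial differentiation, at -1.20 (second probe -1.50), and the kinase gene SGK1 at -1.12 (other probes -1.17 and -1.11). DUSP1, a phosphatase that switches off MAP kinases, had 11517 units with SCTR siRNA and 25141 with control siRNA, a difference of -1.03, and the stress sensor GADD45B was at -1.01 (-0.78 in the authors' values). Higher were CCN2 (CTGF), a matrix protein related to CCN1, at 1.36 (second probe 1.17), and ZFP36L1, an RNA-binding protein that promotes mRNA decay, with 1742 units with SCTR siRNA and 769 with control siRNA, a difference of 1.24.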
